A study of Mus musculus with 8 samples.

Results

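The quantity described here is the difference in T cell receptor (TCR) response between 2 guide RNAs in mouse regulatory T cells: the log2 change from 0 h to 3 h with a guide against Foxp3, minus the same change with a control guide. It was computed for every gene over all 8 libraries of the study, and 16642 of the 55665 genes in the count table had enough counts to test. The cells were natural regulatory T (nTreg) cells, CD4+GFP+ cells sorted from spleen and lymph nodes and then cultured. All 4 groups share the genotype RosaCas9/+ Foxp3gfp, in which Cas9 is expressed and a green fluorescent protein reports Foxp3. They differ in the guide, sgNC (control) or sgFoxp3, and in the treatment, mock buffer (DPBS, 0 h) or antibodies to CD3 and CD28 for 3 h. Each group holds 2 libraries. The labels give neither the age or number of the mice, nor the share of cells in which the guide had cut, nor whether libraries came from separate cultures, so p-values measure the spread between these libraries only, which may be technical.

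Antibodies to CD3 and CD28 stand in for antigen and costimulation. Within minutes they start the calcium, ERK and kinase cascades that bring the factors NFAT, AP-1 and NF-kappaB to immediate early genes, cytokine genes and surface receptor genes, while genes of quiescence and lymphoid recirculation are shut off. Foxp3, an X-linked forkhead factor that specifies Treg cells, is known to bind many of the same regulatory elements and to restrain part of this program.

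A difference above 0 means that the change from 0 h to 3 h was more positive with the Foxp3 guide, and a difference below 0 that it was more negative. A difference or effect counts as called where its adjusted p was below 0.05 in edgeR's quasi-likelihood test over all genes. A called difference was sorted by the TCR effect of each guide. It is named widened where both effects were called in the same direction and the one with the Foxp3 guide was larger, blunted where it was smaller, and reversed where the effects were called in opposite directions. It is named for 1 guide alone where only that guide's TCR effect was called. Levels are CPM, counts scaled to library size, in order of replicate 1 and 2, and differences and effects are log2 values ± SE. The SE was derived from the test, as the size of the log2 value over the square root of its F statistic. It is therefore approximate, and can be too small where a large effect rests on few counts and unsteady near 0. A value in parentheses after a gene is its difference unless it follows the effect of 1 guide. CPM values are not adjusted for gene length, so they compare libraries and not genes.

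Library totals ran from 38729009 to 48626432 expected counts with the control guide and from 55865290 to 94807362 with the Foxp3 guide. The defining transcripts of the labelled cells were present in every group: Cd3e, a chain of the TCR complex, averaged from 132 to 245 CPM over the 4 groups, Cd4 from 141 to 462 CPM, Il2ra from 266 to 5014 CPM and Ikzf2 from 397 to 672 CPM. In bulk libraries, fewer cells of a type and less RNA per cell cannot be told apart.

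Foxp3 itself (chrX:7573644-7595245, plus strand, GRCm38), the target of the guide, was counted at 764 and 776 CPM at 0 h and 679 and 673 CPM at 3 h with the control guide, and 87.6 and 88.5 CPM and 76.1 and 71.8 CPM with the Foxp3 guide. Every Foxp3-guide library lay below every control-guide library. Its TCR effect was -0.19 ± 0.039 with the control guide against -0.25 ± 0.042 with the Foxp3 guide, and the difference of -0.07 ± 0.058 was not called (adjusted p = 0.38, edgeR's quasi-likelihood test). The gap between the guides was thus about as wide at 3 h (-3.19) as at 0 h (-3.13).

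Across the genes tested, the TCR effects of the 2 guides, which share no library, ran largely in parallel. Their Pearson correlation across genes was 0.899 and the Spearman correlation 0.918, given as a description because genes are not independent replicates. The TCR effect was called for 13620 genes (81.8%) with the control guide and for 14208 genes (85.4%) with the Foxp3 guide, and its SD over genes was 1.87 and 2.14. The Foxp3-guide libraries held more counts, and the part of depth in these shares was not tested. The difference between the effects was called for 7457 genes, 44.8% of those tested. In 7426 of these, the lowest of the 4 library-to-library changes of one guide lay above the highest of the other. At 2-fold or more, 1557 genes were called (9.36%), 1549 of them with changes that did not overlap. The calls were made from the same library values, so these 2 counts of changes without overlap add no support to them. The share without overlap over all genes tested was not counted.

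Direction depended on the sign of the TCR effect. Of the called genes, 2960 (17.8% of those tested) had a higher TCR effect with the Foxp3 guide and 4497 (27%) a lower one, so that 39.7% of the calls were higher. That split moved with the scaling: it was 48.7% with median-ratio or upper-quartile scaling, 50.2% in DESeq2 and 51.5% on log2(TPM+1), and 53.2% or 48.2% when Foxp3 guide 3 h replicate 1 or 2 was left out. At 2-fold or more, 555 genes (3.33%) were higher and 1002 (6.02%) were lower. Genes were then grouped by the TCR effect averaged over both guides, which does not use the difference. Of 3716 genes induced at least 2-fold on average, 1198 (32.2%) were called higher and 552 (14.9%) lower with the Foxp3 guide. Of 4466 genes repressed at least 2-fold on average, 299 (6.7%) were called higher and 1805 (40.4%) lower. The median TCR effect went from 1.85 with the control guide to 2.0 with the Foxp3 guide in the induced genes, and from -1.73 to -2.09 in the repressed genes. In both groups of genes the response was on balance larger with the Foxp3 guide, and this order of higher against lower counts held in all 22 settings run.

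**Figure D1:**
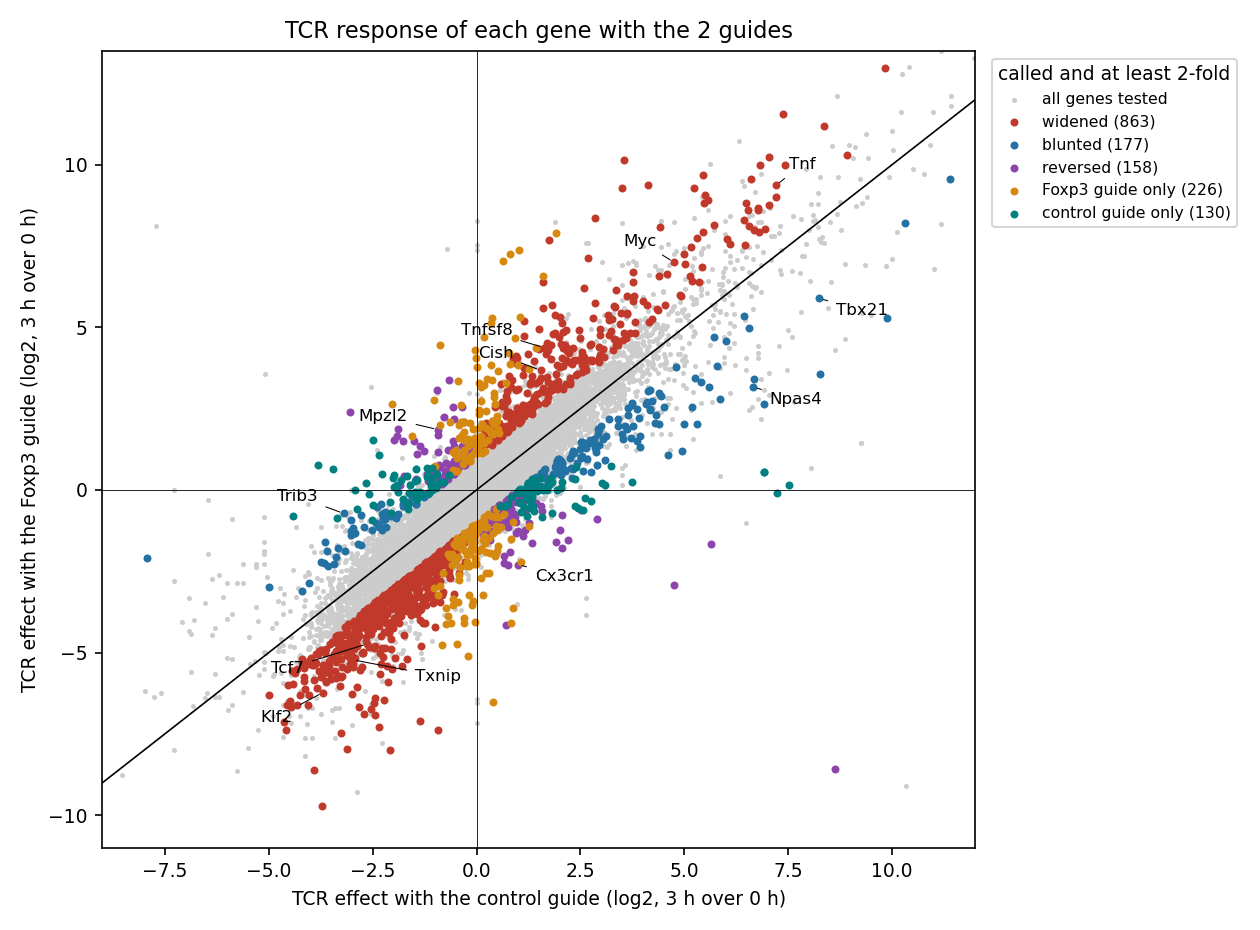
TCR effect of each of the 16642 genes tested (log2, 3 h over 0 h) with the control guide (horizontal axis) and with the Foxp3 guide (vertical axis), with the line of equality; 10 genes lie outside the axes. Coloured points are genes called for the difference at 2-fold or more, by response class with its number of genes, and the 863 widened responses lie farther from 0 with the Foxp3 guide, above the line on the induced side and below it on the repressed side.

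Widened responses were the most numerous class. They made up 4074 of the 7457 called genes (54.6%), against 1736 blunted (23.3%), 425 reversed (5.7%), 694 with a TCR effect called with the Foxp3 guide alone and 513 with the control guide alone. Another 15 called genes had no called TCR effect with either guide. At 2-fold or more the class sizes were 863, 177, 158, 226 and 130. Within the widened class at 2-fold or more, 590 responses were repressions and 273 were inductions, while in the blunted class 126 were inductions and 51 repressions. Over all called genes, thinning every library to the smallest gave 640 responses with the Foxp3 guide alone and 512 with the control guide alone.

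A larger fold can come from a different starting level or a different end level, so the guide effect (Foxp3 guide over control guide) was read at each time. It was called for 10539 genes at 0 h (63.3%) and for 10231 at 3 h (61.5%). In the 273 inductions widened at 2-fold or more, the median guide effect was -1.12 at 0 h and 0.47 at 3 h, so the typical gene started lower with the Foxp3 guide and ended somewhat higher. The 3 h guide effect was the larger of the 2 in 102 of these 273 genes. In the 590 widened repressions the medians were 0.23 at 0 h and -1.24 at 3 h, and the 3 h effect was the larger in 420. Widened inductions thus differed mostly in where they began and widened repressions mostly in where they ended. The 126 blunted inductions had medians of 1.35 at 0 h and -0.16 at 3 h, which is a higher start with the Foxp3 guide and a similar end. The difference equals the guide effect at 3 h minus that at 0 h, and these classes were picked on it. A gap between their medians at 0 h and 3 h is therefore built in. On the linear scale, the change in CPM was also larger with the Foxp3 guide in 231 of the 273 widened inductions and 452 of the 590 widened repressions, but smaller in 42 and 138.

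**Figure D2:**
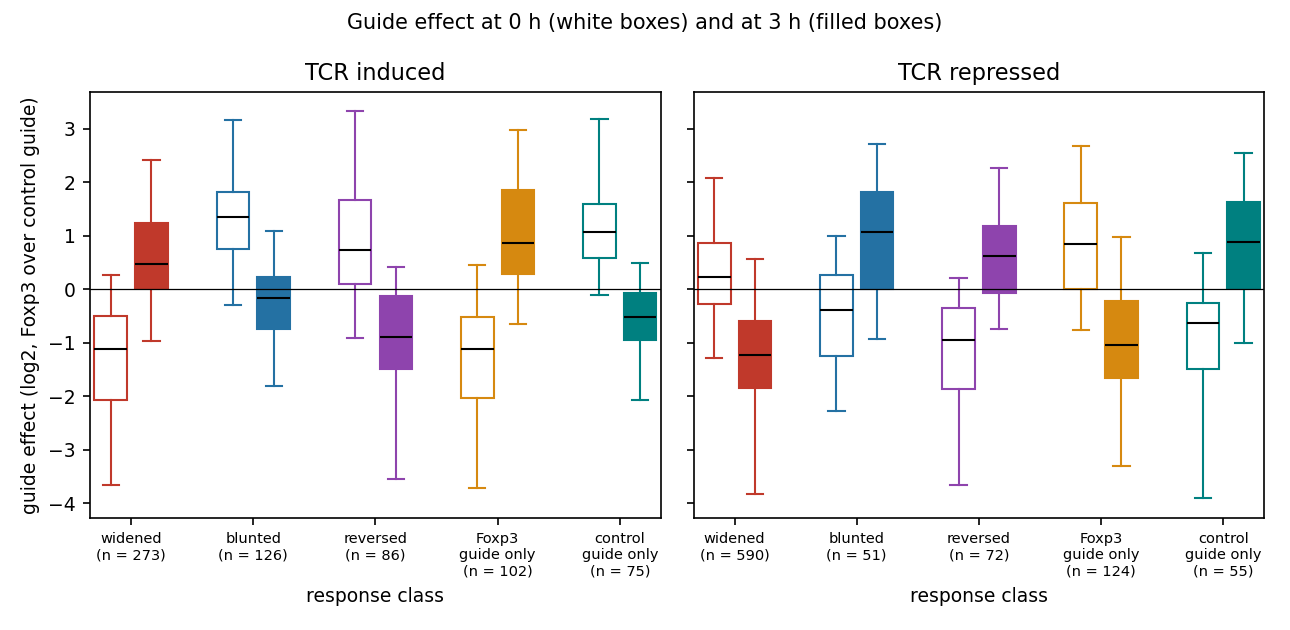
Guide effect (log2, Foxp3 guide over control guide) at 0 h (white boxes) and 3 h (filled boxes) for genes called at 2-fold or more, by response class and by the direction of the TCR effect (that with the control guide for reversed responses). Boxes span the quartiles with the median as a line and whiskers reach the 5th and 95th percentiles over genes; widened inductions have a median of -1.12 at 0 h and widened repressions one of -1.24 at 3 h.

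Jaml (chr9:45079183-45108534, plus strand), a junctional adhesion receptor of leukocytes, was measured at 18.5 and 19.3 CPM at 0 h and 53.9 and 53.5 CPM at 3 h with the control guide, and 8.01 and 7.84 CPM and 245 and 245 CPM with the Foxp3 guide. It was the lowest at 0 h and the highest at 3 h with the Foxp3 guide. The 4 changes of one guide did not overlap those of the other, which the naming rule required. Its TCR effect was 1.51 ± 0.047 with the control guide against 4.95 ± 0.047 with the Foxp3 guide, a difference of 3.45 ± 0.068 (adjusted p = 5.2e-21, edgeR's quasi-likelihood test). Crtam, an adhesion receptor of activated and cytotoxic T cells, went from 0.233 to 10.7 CPM with the control guide and 0.0784 to 43.00 CPM with the Foxp3 guide, with a difference of 3.56 ± 0.44. Ccn4, a secreted matrix protein, had a difference of 3.67 ± 0.27 and went from 0.903 to 19.2 CPM with the control guide and 0.178 to 49.1 CPM with the Foxp3 guide. Slamf7, a receptor of the SLAM family, differed by 3.17 ± 0.28, Pdzk1ip1, a small membrane protein, by 3.33 ± 0.52, Samd4, an RNA-binding repressor of translation, by 2.94 ± 0.27, and Cd24a, a GPI-anchored glycoprotein, by 2.8 ± 0.15. In all 7 of these genes the level at 0 h was lower with the Foxp3 guide and the level at 3 h was higher, and both guide effects were called. The 7 were picked for large positive differences, a choice that favours a lower start and a higher end. Among them the guide effect at 3 h ran from 0.32 in Slamf7 to 2.19 in Jaml.

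Another 3 genes of this class had almost no counts at 0 h. Olr1 (chr6:129485244-129507165, minus strand), a lectin-like receptor for oxidised lipoprotein, had 6 counts over the control-guide libraries at 0 h and 2323 at 3 h, a log2 ratio of 8.70, and 0 counts with the Foxp3 guide at 0 h and 9964 at 3 h, a log2 ratio of at least 11.79 against a floor of 3 counts over the group. The call for Olr1 was lost without control guide 0 h replicate 2. Sphk1, the kinase that makes sphingosine 1-phosphate, had 3 and 2 counts at 0 h and 2736 and 17413 at 3 h with the control and the Foxp3 guide. Its log2 ratio was 9.93 (95% counting interval 8.39 to 12.21) and 13.18 (11.33 to 16.23), so the intervals overlap. Utf1, a chromatin factor known from pluripotent cells, had 8 and 1 counts at 0 h and 2509 and 2866 at 3 h. Leaving out any one of the 4 libraries at 0 h ended the call of Sphk1, and leaving out replicate 1 of either guide at 0 h ended that of Utf1, which was of opposite sign on log2(TPM+1) at -0.40. These intervals and bounds cover counting error only, and the fitted differences of such genes depend on the prior count.

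The sequence before the start of Olr1 is shown as the largest fitted widening, from RefSeq on GRCm38.p6 (chr6:129507166-129507415, minus strand), 5′ to 3′ over the 250 bases before the start. Capitals mark matches on either strand to the NFAT core GGAAA, the AP-1 site TGANTCA, the response element TGACGTCA and the kappaB consensus.
Olr1: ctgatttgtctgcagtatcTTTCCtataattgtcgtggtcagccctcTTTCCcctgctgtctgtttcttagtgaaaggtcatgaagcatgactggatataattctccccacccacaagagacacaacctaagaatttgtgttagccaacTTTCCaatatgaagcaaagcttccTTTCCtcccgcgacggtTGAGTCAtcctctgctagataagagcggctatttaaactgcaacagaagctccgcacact
The window holds 4 matches to the NFAT core, all on the other strand as TTTCC, and 1 AP-1 match, TGAGTCA, 60 to 54 bases before the start. Of 32851 promoter windows of the same length, 55.6% hold the NFAT core, 6.75% the AP-1 site, 1.55% the TGACGTCA element and 7.25% the kappaB consensus. Matching letters describe the window and do not show binding. Only 65.4% of the genes tested have a promoter in the table, under the minimum of 80% set for comparing classes, so no class was compared by motif.

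Myc and several other immediate early genes started lower with the Foxp3 guide. Myc (chr15:61985391-61990374, plus strand), the factor that drives growth after activation, was measured at 44.8 and 45.4 CPM at 0 h and 1192 and 1232 CPM at 3 h with the control guide, and 8.85 and 8.41 CPM and 1104 and 1103 CPM with the Foxp3 guide. The Foxp3-guide libraries lay below the others at 0 h, and all 4 libraries at 3 h lay close together. The difference was 2.25 ± 0.067, made up of a guide effect of -2.39 ± 0.054 at 0 h and -0.14 ± 0.040 at 3 h. Among the 23 immediate early genes, which are switched on without new protein synthesis, all were induced with both guides, and 10 were called higher and 6 lower with the Foxp3 guide. Over all genes tested, 17.8% were called higher and 27% lower. The counts of this list and of every list below are to be read against these shares. Fos, a subunit of AP-1, differed by 1.32 ± 0.15 and Nr4a2, an orphan nuclear receptor, by 1.07 ± 0.15, both from a lower start. Egr1, a zinc finger factor of the ERK pathway, differed by -0.63 ± 0.085 from a lower end, at 490.4 against 267 CPM at 3 h. Fosl1, another AP-1 subunit, had 3 counts at 0 h and 8078 at 3 h with the control guide, or a log2 ratio of 11.50 (95% counting interval 9.95 to 13.77), and 15 and 10745 counts with the Foxp3 guide, a ratio of 9.58; it was among the 6 called lower, and any library left out other than control guide 0 h replicate 2 or control guide 3 h replicate 1 ended that call. Over the 21 members with at least 10 counts in every group the median difference was 0.26, against -0.09 over all genes counted that way. The median over all 23 was 0.14, and it was -0.001 on log2(TPM+1).

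Genes listed for ERK feedback, mostly phosphatases and Sprouty genes together with the Ras regulators Rasa1 and Rasgrp1, moved in both directions. Of 16, 8 were called higher and 6 lower, with a median of 0.28 over 15. Dusp4, a nuclear phosphatase of ERK, went from 52.7 to 647 CPM with the control guide and 10.8 to 678 CPM with the Foxp3 guide, a difference of 2.36 ± 0.074 that came from 0 h alone. Dusp1, a phosphatase of p38 and JNK, went from 8.86 to 161 CPM with the control guide and 14.3 to 80.3 CPM with the Foxp3 guide, a difference of -1.7 ± 0.080, with a lower level at 3 h. These 2 phosphatases had opposite differences. Of 18 NF-kappaB subunits and targets, 8 were higher and 3 lower (median 0.14). Cd83, a surface protein of activated cells, differed by 1.94 ± 0.10 and Rel, the c-Rel subunit needed for Treg development, by 1.05 ± 0.064, while Icam1, the ligand of the integrin LFA-1, differed by -0.97 ± 0.058.

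TCR-proximal genes were called in both directions. Of 22 genes of the TCR complex and its kinases, 5 were called higher and 7 lower, beside 17.8% and 27% of all genes tested. Their median of 0.02 was -0.005 without a filter on low counts. Ptprc, the CD45 phosphatase, fell with the control guide (-0.6 ± 0.045) and rose with the Foxp3 guide (0.69 ± 0.045). Pag1, an adaptor that recruits the inhibitory kinase Csk, fell more with the Foxp3 guide (-1.36 ± 0.068). Among 15 NFAT and calcium entry genes, 7 were higher and 5 lower. Stim2, a calcium sensor of the endoplasmic reticulum, differed by 1.0 ± 0.060, and Itpr3, a calcium release channel, by -0.77 ± 0.062. Of 14 anergy ligases and diacylglycerol kinases, 8 were higher and 4 lower. Cblb, a ubiquitin ligase that restrains TCR signalling, rose by 0.14 ± 0.040 with the control guide against 1.18 ± 0.039 with the Foxp3 guide, and Ptpn6, the SHP-1 phosphatase, rose with the control guide (1.1 ± 0.038) and fell with the Foxp3 guide (-0.39 ± 0.037).

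Of the 10 effector cytokines called, 9 were widened. Tnf (chr17:35199381-35202007, minus strand) was measured at 4.83 and 4.91 CPM at 0 h and 708 and 735 CPM at 3 h with the control guide, and 2.35 and 2.42 CPM and 1551 and 1594 CPM with the Foxp3 guide. The Foxp3-guide libraries were the lowest at 0 h and the highest at 3 h, and the difference was 2.16 ± 0.10. Of 22 effector cytokine genes tested, 9 were called higher and 1 lower, and the median difference over the 11 members with at least 10 counts in every group was 0.74. The gene called lower was Ebi3, a subunit of IL-27 and IL-35 (-0.41 ± 0.12), whose call was lost in 5 of 20 settings. These included DESeq2, thinning to the smallest library, the 1.2-fold test and the fit without Foxp3 guide 3 h replicate 1. Ifng, the cytokine of type 1 helper cells, went from 0.381 to 186 CPM with the control guide and 0.357 to 449 CPM with the Foxp3 guide, a difference of 1.38 ± 0.27, and Il17f, of type 17 cells, from 0.181 to 20.01 CPM with the control guide and 0.186 to 73.1 CPM with the Foxp3 guide, a difference of 1.84 ± 0.42. Both had similar levels at 0 h with either guide and a higher level at 3 h with the Foxp3 guide. Csf1, the macrophage growth factor, differed by 1.67 ± 0.10 in another way, since it started at 10.97 against 3.51 CPM and ended at 55.6 against 56.5. Il10, an anti-inflammatory cytokine, was near the threshold with a difference of 0.29 ± 0.12 (adjusted p = 0.043, edgeR's quasi-likelihood test), and its level at 3 h was 230.4 CPM with the control guide against 150.1 with the Foxp3 guide.

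Several cytokines with almost no counts at 0 h were not called. Il2, the growth factor that Treg cells consume but hardly make, went from 0.0947 to 395 CPM with the control guide and 0.374 to 3693 CPM with the Foxp3 guide, and its difference of 1.3 ± 0.75 was not called (adjusted p = 0.19, edgeR's quasi-likelihood test). Its guide effect at 3 h was 3.22 ± 0.071. Il3 had 0 counts with the control guide at 0 h and 39598 at 3 h, a log2 ratio of at least 13.79, and 8 and 253447 counts with the Foxp3 guide, a log2 ratio of 15.05. Il13 had 1 and 1521 counts with the control guide, or a log2 ratio of 10.67 (95% counting interval 8.19 to 15.98), and 8 and 64486 with the Foxp3 guide, a log2 ratio of 13.07. The level at 3 h was thus higher with the Foxp3 guide in these 3 cytokines, while their folds rest on few or no counts at 0 h.

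The sequence before the start of Tnf is shown as that of the effector cytokine with the largest called difference (RefSeq, GRCm38.p6, chr17:35202008-35202257, minus strand), with the same motifs in capitals.
Tnf: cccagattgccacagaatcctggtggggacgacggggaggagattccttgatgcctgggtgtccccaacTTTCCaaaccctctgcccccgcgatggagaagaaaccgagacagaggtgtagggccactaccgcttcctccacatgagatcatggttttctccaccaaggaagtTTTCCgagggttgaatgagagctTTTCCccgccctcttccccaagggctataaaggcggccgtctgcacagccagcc
It holds 3 matches to the NFAT core, all on the other strand, and none to the other 3 patterns in capitals.

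TNF superfamily genes were called in both directions. Tnfsf8 (chr4:63831308-63861347, minus strand), the CD30 ligand, was measured at 145 and 145 CPM at 0 h and 459 and 434 CPM at 3 h with the control guide, and 149 and 156 CPM and 3199.9 and 3146 CPM with the Foxp3 guide. The guide effect was not called at 0 h (0.08 ± 0.044), and at 3 h both Foxp3-guide libraries were far above the others, a difference of 2.75 ± 0.062. Tnfrsf9 (chr4:150914562-150946102, plus strand), the costimulatory receptor 4-1BB, was measured at 144 and 149.8 CPM at 0 h and 2006 and 2006 CPM at 3 h with the control guide, and 17.8 and 19.2 CPM and 1043 and 1042 CPM with the Foxp3 guide. It was below the control guide at both times with the Foxp3 guide, yet its TCR effect was larger by 2.05 ± 0.064. Tnfsf14, the ligand LIGHT, was above it at both times, with a difference of -2.12 ± 0.17. Of 17 members of the superfamily, 7 were called higher and 8 lower, and the median of -0.06 changed sign under 5 of 20 alternatives, with 0.001 under median-ratio scaling.

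Of 14 coinhibitory and CD28-family receptors, 7 were called higher and 4 lower (median 0.33). Cd160 went from 0.487 to 17.6 CPM with the control guide and 0.7296 to 130.1 CPM with the Foxp3 guide (2.32 ± 0.29), Havcr2, the receptor TIM-3, from 0.513 to 75.5 CPM with the control guide and 0.379 to 195 CPM with the Foxp3 guide (1.81 ± 0.26), and Pdcd1, the receptor PD-1, from 23.4 to 249.6 CPM with the control guide and 15.4 to 352 CPM with the Foxp3 guide (1.1 ± 0.061). Each of these 3 ended higher with the Foxp3 guide. Ctla4, the CD28 antagonist on which Treg suppression depends, rose with the control guide from 589 to 1009.6 CPM and fell with the Foxp3 guide from 414 to 327 CPM, a difference of -1.12 ± 0.063. Tigit, another coinhibitory receptor, had TCR effects of 1.55 ± 0.053 and 1.55 ± 0.047, and the difference was not called (adjusted p = 0.98, SE 0.070, edgeR).

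**Figure D3:**
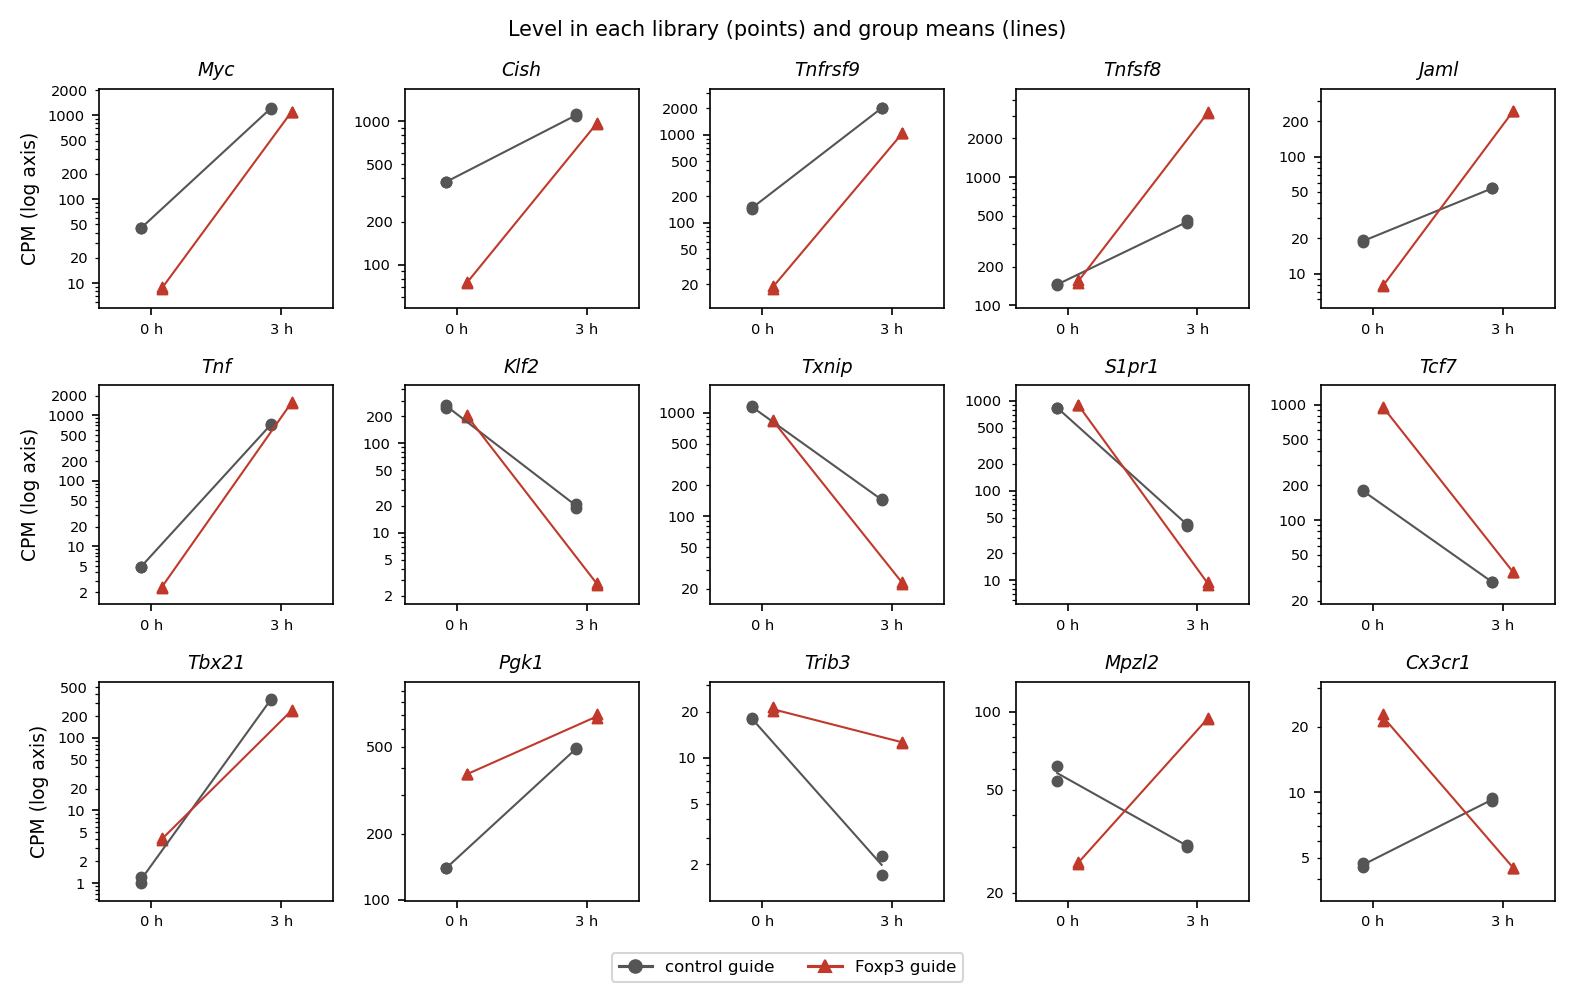
Level of 15 genes in each of the 8 libraries, in CPM on log axes that differ between panels, at 0 h and 3 h, with the control guide (grey circles) and the Foxp3 guide (red triangles); lines join group means. Myc, Cish and Tnfrsf9 start lower with the Foxp3 guide, Tnfsf8 and Tnf end higher, Klf2, Txnip and S1pr1 end lower, and Mpzl2 and Cx3cr1 cross.

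Treg signature genes were divided. Of 31 tested, 15 were called higher and 11 lower with the Foxp3 guide (median 0.13). Il2ra (chr2:11642807-11693193, plus strand), the high-affinity IL-2 receptor chain, was measured at 1285 and 1312 CPM at 0 h and 5099 and 4928 CPM at 3 h with the control guide, and 262 and 270.0 CPM and 2732 and 2739 CPM with the Foxp3 guide. It lay lower with the Foxp3 guide at both times, and its TCR effect was larger by 1.41 ± 0.059. Itgb8, an integrin chain that activates TGF-beta, had the same pattern (24.1 to 239.6 CPM with the control guide and 2.45 to 123 CPM with the Foxp3 guide, difference 2.33 ± 0.089). Lrrc32, the GARP anchor of latent TGF-beta, rose with the control guide (0.82 ± 0.040) and fell with the Foxp3 guide (-0.57 ± 0.040). Ikzf2, the factor Helios, did the opposite, with effects of -0.6 ± 0.043 and 0.25 ± 0.043. Lgmn, a lysosomal protease, fell with both guides and fell further with the Foxp3 guide (-1.47 ± 0.17). The 31 genes included 15 widened, 4 blunted and 6 reversed responses.

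IL-2 and STAT5 target genes leaned higher, with 10 of 16 called higher and 3 lower and a median of 0.60. Cish (chr9:107296026-107302784, plus strand), a feedback inhibitor of cytokine and TCR signalling, was measured at 378 and 378 CPM at 0 h and 1078 and 1122 CPM at 3 h with the control guide, and 74.7 and 76.3 CPM and 973 and 961 CPM with the Foxp3 guide. The gap between the guides was wide at 0 h and narrow at 3 h, and the difference was 2.14 ± 0.058. Ccnd2, a D-type cyclin, differed by 1.44 ± 0.063 in the same way, from 408 to 3160.1 CPM with the control guide and 129 to 2716 CPM with the Foxp3 guide. Socs2, another feedback inhibitor, was lower with the Foxp3 guide at both times by about the same factor, and its difference of -0.01 ± 0.052 was not called.

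Among the widened repressions were genes of quiescence and recirculation. Klf2 (chr8:72319033-72321656, plus strand), a factor that keeps T cells quiescent and drives their exit from lymphoid organs, was measured at 250.2 and 271 CPM at 0 h and 19.1 and 21.1 CPM at 3 h with the control guide, and 207 and 196 CPM and 2.78 and 2.63 CPM with the Foxp3 guide. At 0 h the Foxp3-guide libraries were somewhat lower (-0.37 ± 0.043), and at 3 h both Foxp3-guide libraries were far below the others. Its TCR effect was -3.7 ± 0.053 and -6.23 ± 0.067, a difference of -2.53 ± 0.10 (adjusted p = 1.7e-15, edgeR's quasi-likelihood test). S1pr1 (chr3:115710433-115715072, minus strand), the egress receptor that KLF2 is known to drive, was measured at 839 and 839 CPM at 0 h and 42.8 and 40.8 CPM at 3 h with the control guide, and 907 and 909 CPM and 8.86 and 9.61 CPM with the Foxp3 guide, with a difference of -2.28 ± 0.069. Txnip, an inhibitor of glucose uptake, was measured at 1124 and 1161 CPM at 0 h and 142 and 147 CPM at 3 h with the control guide, and 838 and 853 CPM and 22.4 and 22.9 CPM with the Foxp3 guide, with a difference of -2.24 ± 0.061. Klf2, S1pr1 and Txnip all ended lower with the Foxp3 guide. Ccr7, the lymph node homing receptor, also parted at 3 h, from 256 to 79.8 CPM with the control guide and 244 to 25.6 CPM with the Foxp3 guide (-1.57 ± 0.057).

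Tcf7 (chr11:52252371-52283014, minus strand), which encodes the naive and memory factor TCF-1, reached a larger repression by another route. It was measured at 179 and 181 CPM at 0 h and 28.9 and 29.1 CPM at 3 h with the control guide, and 936 and 947 CPM and 35.6 and 35.3 CPM with the Foxp3 guide, so that it was highest at 0 h with the Foxp3 guide and nearly level between the guides at 3 h (difference -2.1 ± 0.059). Lef1, its relative, followed with -1.23 ± 0.054. Of 21 naive and quiescence genes, 14 were called lower and 4 higher, with a median of -0.75. Il6st, the shared IL-6 receptor chain, and Foxp1, a forkhead factor of quiescence, went the other way with 1.46 ± 0.060 and 1.34 ± 0.056. Of 19 homing and egress genes, 8 were higher and 7 lower, beside 17.8% and 27% of all genes tested. Among these 19, Ccr8, a chemokine receptor of tissue Treg cells, had the largest negative difference (14.5 to 224 CPM with the control guide and 51.2 to 161 CPM with the Foxp3 guide, difference -2.29 ± 0.059). Cxcr3, of type 1 cells, differed by 1.53 ± 0.079.

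The largest widened repressions by the naming rule included those of Vipr1, Apol9b and Kctd12b. Vipr1 (chr9:121642716-121672954, plus strand), the receptor for vasoactive intestinal peptide, was measured at 8.85 and 9.09 CPM at 0 h and 2.73 and 2.93 CPM at 3 h with the control guide, and 56.3 and 53.5 CPM and 1.55 and 1.43 CPM with the Foxp3 guide. With the Foxp3 guide it was the highest at 0 h and the lowest at 3 h, a difference of -3.54 ± 0.14. Apol9b, an interferon-inducible apolipoprotein L gene, went from 70.3 to 28.98 CPM with the control guide and 19.6 to 1.15 CPM with the Foxp3 guide (-2.82 ± 0.10), and Ifi208, of the interferon-inducible PYHIN family, from 17.5 to 6.55 CPM with the control guide and 44.8 to 3.195 CPM with the Foxp3 guide (-2.39 ± 0.12). Both have close paralogs, so the split of reads between copies is uncertain. Mmp11, a matrix metalloprotease, differed by -2.47 ± 0.20 and Kcnip2, a channel-interacting calcium sensor, by -2.38 ± 0.13. Kctd12b differed by -2.81 ± 0.33 in counts but by 1.36 on log2(TPM+1).

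Helper lineage factors were called in both directions, and Tbx21 and Eomes were among the blunted inductions. Tbx21 (chr11:97098071-97115331, minus strand), the T-bet factor of type 1 cells, was measured at 1.23 and 0.999 CPM at 0 h and 333 and 342 CPM at 3 h with the control guide, and 4.12 and 3.93 CPM and 237 and 240.1 CPM with the Foxp3 guide. It was higher at 0 h and lower at 3 h with the Foxp3 guide, and its TCR effect was 8.25 ± 0.069 against 5.89 ± 0.054, a difference of -2.36 ± 0.12. Ifng, which T-bet is known to drive, was widened in the same libraries. Id2, an inhibitor of E proteins, rose less (-1.58 ± 0.088) from a higher start, and Eomes, a T-box relative, rose less (-1.53 ± 0.17) to a lower end. Ahr, the aryl hydrocarbon receptor, was widened (1.1 ± 0.075), and so was Bcl6, the factor of follicular helper cells (0.5 ± 0.063). Of 23 helper lineage factors, 8 were called higher and 10 lower, with a median of -0.09 over 22 members. The median over all 23 was -0.07, and 0.03 without Foxp3 guide 3 h replicate 1.

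Npas4 (chr19:4984355-4990316, minus strand), an activity-dependent factor best known from neurons, had the largest blunted induction by the naming rule. It was measured at 0.3798 and 0.143 CPM at 0 h and 26.2 and 25.6 CPM at 3 h with the control guide, and 0.826 and 0.917 CPM and 7.65 and 7.95 CPM with the Foxp3 guide. The Foxp3-guide libraries were higher at 0 h and lower at 3 h, with a difference of -3.49 ± 0.28. Gadd45g, a stress-inducible signalling adaptor, followed with -2.42 ± 0.14, from 3.08 to 148 CPM with the control guide and 5.19 to 46.6 CPM with the Foxp3 guide. The RefSeq window of Npas4 lies inside its gene model in GENCODE M21, so that of Gadd45g is shown, the next-largest blunted induction with a window outside the model (GRCm38.p6, chr13:51846425-51846674, plus strand).
Gadd45g: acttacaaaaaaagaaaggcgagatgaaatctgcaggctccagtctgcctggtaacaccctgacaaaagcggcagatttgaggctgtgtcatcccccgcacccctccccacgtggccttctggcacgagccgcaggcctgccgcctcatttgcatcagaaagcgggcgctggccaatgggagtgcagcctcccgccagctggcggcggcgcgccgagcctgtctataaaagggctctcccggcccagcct
It holds no match to the 4 patterns in capitals. Among the other patterns searched it holds 1 match to the ATF4 and C/EBP composite TGATGNAA, on the other strand as TTGCATCA, which 3.45% of all windows hold.

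Most glycolytic genes were induced less with the Foxp3 guide. Pgk1 (chrX:106187100-106203699, plus strand), phosphoglycerate kinase, was measured at 139.7 and 139.8 CPM at 0 h and 487 and 495 CPM at 3 h with the control guide, and 374 and 376 CPM and 674 and 705 CPM with the Foxp3 guide. It was higher with the Foxp3 guide at both times, more so at 0 h, and its TCR effect was 1.81 ± 0.041 and 0.88 ± 0.039. Of 21 glycolysis and hypoxia genes, 14 were called lower and 4 higher, with a median of -0.35, and the median TCR effect was 1.49 with the control guide against 0.93 with the Foxp3 guide. Tpi1 differed by -0.99 ± 0.058 and Ldha, lactate dehydrogenase, by -0.81 ± 0.060. Ldha had nearly the same level at 3 h with both guides and a higher one at 0 h with the Foxp3 guide. Hk2, the inducible hexokinase, was an exception (1.44 ± 0.11), going from 4.48 to 192 CPM with the control guide and 1.903 to 222 CPM with the Foxp3 guide.

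Ribosome biogenesis genes were mostly called higher. Of 24 ribosome biogenesis genes, 16 were called higher and 2 lower, with a median of 0.29. Polr1b, a subunit of RNA polymerase I, differed by 1.2 ± 0.072 and Nolc1, a nucleolar chaperone, by 1.02 ± 0.061, both from a lower start, while Wdr12, a factor of large subunit assembly, rose less from a higher start (-1.33 ± 0.061). In the MYC network 5 of 10 genes were higher and 2 lower. Of 22 cholesterol and fatty acid synthesis genes, 10 were higher and 3 lower; Fasn, fatty acid synthase, differed by 1.1 ± 0.064 and Idi1, an isomerase of the sterol pathway, by -1.09 ± 0.075.

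Trib3 (chr2:152337422-152344032, minus strand), a pseudokinase induced by the factor ATF4, was measured at 18.2 and 18.05 CPM at 0 h and 1.71 and 2.27 CPM at 3 h with the control guide, and 21.4 and 20.3 CPM and 12.5 and 12.8 CPM with the Foxp3 guide. The 4 libraries at 0 h were close, and at 3 h the Foxp3-guide libraries were far above the others, with TCR effects of -3.19 ± 0.10 and -0.72 ± 0.065. Pck2, a mitochondrial enzyme of gluconeogenesis and another ATF4 target, had a guide effect of 0.00 ± 0.042 at 0 h and 1.71 ± 0.063 at 3 h. Of 23 genes listed for amino acid stress, 13 were called higher and 3 lower (median 0.26 over 21). The list holds Trib3 but not Pck2, and includes amino acid transporters and enzymes of serine synthesis. Slc7a3, a cationic amino acid transporter, was low in every group, from 0.341 to 0.3400 CPM with the control guide and 0.165 to 2.300 CPM with the Foxp3 guide, and differed by 3.79 ± 0.49. Psat1, of serine synthesis, rose less with the Foxp3 guide (-1.07 ± 0.057). Sh2d1a, the adaptor SAP of SLAM receptors, was the third-largest blunted repression (1.53 ± 0.090).

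Reversed responses formed the smallest class with a called effect of both guides. At 2-fold or more, 86 genes rose with the control guide and fell with the Foxp3 guide, and 72 did the opposite. Cx3cr1 (chr9:119901616-120069879, minus strand), the fractalkine receptor, was measured at 4.56 and 4.71 CPM at 0 h and 9.43 and 9.09 CPM at 3 h with the control guide, and 21.3 and 22.8 CPM and 4.49 and 4.51 CPM with the Foxp3 guide. The Foxp3-guide libraries were the highest of all at 0 h, and at 3 h they were the lower pair, a difference of -3.29 ± 0.11. Slc14a1, a urea transporter, went from 20.8 to 32.7 CPM with the control guide and 12.4 to 2.997 CPM with the Foxp3 guide (-2.68 ± 0.10), and Gas2l3, a cytoskeletal linker, from 9.68 to 19.2 CPM with the control guide and 32.9 to 13.9 CPM with the Foxp3 guide (-2.24 ± 0.093).

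In the opposite direction, Mpzl2 (chr9:45039799-45054015, plus strand), an adhesion protein of the immunoglobulin family, was measured at 61.7 and 54.2 CPM at 0 h and 30.6 and 30.1 CPM at 3 h with the control guide, and 25.9 and 26.2 CPM and 94.1 and 94.3 CPM with the Foxp3 guide. It fell in the control-guide libraries and rose in the Foxp3-guide libraries, a difference of 2.79 ± 0.074. Stc2, a secreted glycoprotein, went from 4.17 to 3.27 CPM with the control guide and 4.26 to 25.2 CPM with the Foxp3 guide (2.91 ± 0.14), and Gsn, the actin-severing protein gelsolin, from 14.99 to 12.2 CPM with the control guide and 9.33 to 40.00 CPM with the Foxp3 guide (2.4 ± 0.091). Stc2 had no called guide effect at 0 h (0.04 ± 0.10), and its guide effect at 3 h was 2.95 ± 0.088. The sequence before the start of Gsn is shown as that of the largest reversed response with a RefSeq window outside the gene model (GRCm38.p6, chr2:35256109-35256358, plus strand).
Gsn: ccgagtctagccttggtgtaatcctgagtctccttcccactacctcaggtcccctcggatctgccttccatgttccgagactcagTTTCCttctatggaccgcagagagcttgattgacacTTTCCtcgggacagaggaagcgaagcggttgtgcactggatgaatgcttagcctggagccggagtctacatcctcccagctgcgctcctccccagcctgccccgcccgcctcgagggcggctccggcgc
It holds 2 matches to the NFAT core, both on the other strand, and none to the AP-1, TGACGTCA or kappaB patterns.

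Interferon-stimulated genes were called in both directions. Irf1, an interferon-induced transcription factor, rose less with the Foxp3 guide (-1.29 ± 0.053). Gbp2, an interferon-induced GTPase, fell with the control guide (-0.55 ± 0.038) and rose with the Foxp3 guide (1.35 ± 0.039). Of 21 interferon-stimulated genes, 6 were called higher and 9 lower, and the median of -0.08 was 0.04 on log2(TPM+1). Zfp36, the tristetraprolin protein that destabilises cytokine mRNA, also reversed, with effects of 0.68 ± 0.041 and -0.62 ± 0.043. Of 14 cytokine mRNA decay genes, 4 were higher and 5 lower.

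Some TCR effects were called with 1 guide alone. With the Foxp3 guide, Usp27x, a deubiquitinase, rose from 3.595 to 18.2 CPM, while it was at 15.7 and 16.3 CPM with the control guide (2.29 ± 0.10). Sema4b, a semaphorin, and Gpr174, a receptor for lysophosphatidylserine, did likewise (1.57 ± 0.071 and 1.5 ± 0.062). Prr5l, a partner of mTORC2, and Smad7, an inhibitor of TGF-beta signalling, fell with the Foxp3 guide (-2.24 ± 0.052 and -1.38 ± 0.040), with control-guide effects of -0.01 ± 0.091 and -0.03 ± 0.038. Sh3tc1 differed by -1.36 ± 0.11. With the control guide alone, Wee1, a kinase that delays mitosis, rose from 11.5 to 47.5 CPM, and it was at 31.5 and 32.8 CPM with the Foxp3 guide (-1.98 ± 0.076). Sgk1, a kinase downstream of PI3K, and Gdpd5, a phosphodiesterase, had the same form (-1.5 ± 0.068 and -1.26 ± 0.075). Gata1, the erythroid factor, Neb, the muscle protein nebulin, and Kif13b, a kinesin, fell with the control guide alone (1.52 ± 0.086, 1.05 ± 0.13 and 1.02 ± 0.069).

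The remaining lists held calls in both directions. Among 23 cell cycle genes 6 were called higher and 6 lower; Ccne1, a G1 cyclin, differed by 1.4 ± 0.093 and Pcna, the replication clamp, by -0.72 ± 0.054. Among 18 p53 targets and apoptosis genes 3 were higher and 8 lower; Bcl2l11, the death protein BIM, differed by 1.11 ± 0.054. Of 10 granzyme and cytotoxic genes 3 were higher and 3 lower; Serpinb6b, a serine protease inhibitor, differed by 2.67 ± 0.090 and Nkg7, a granule protein, by -0.9 ± 0.11. Of 9 chemokine genes 2 were higher and 1 lower. Their median was 1.08 over the 3 with at least 10 counts in every group and -0.98 over all 9, so its sign rests on genes with few counts. Ccl5 differed by 2.1 ± 0.088 from a higher end, and Cxcl10 by -1.04 ± 0.22 from a lower one. Members of every list are to be read against the 17.8% of all tested genes called higher and the 27% called lower.

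**Figure D4:**
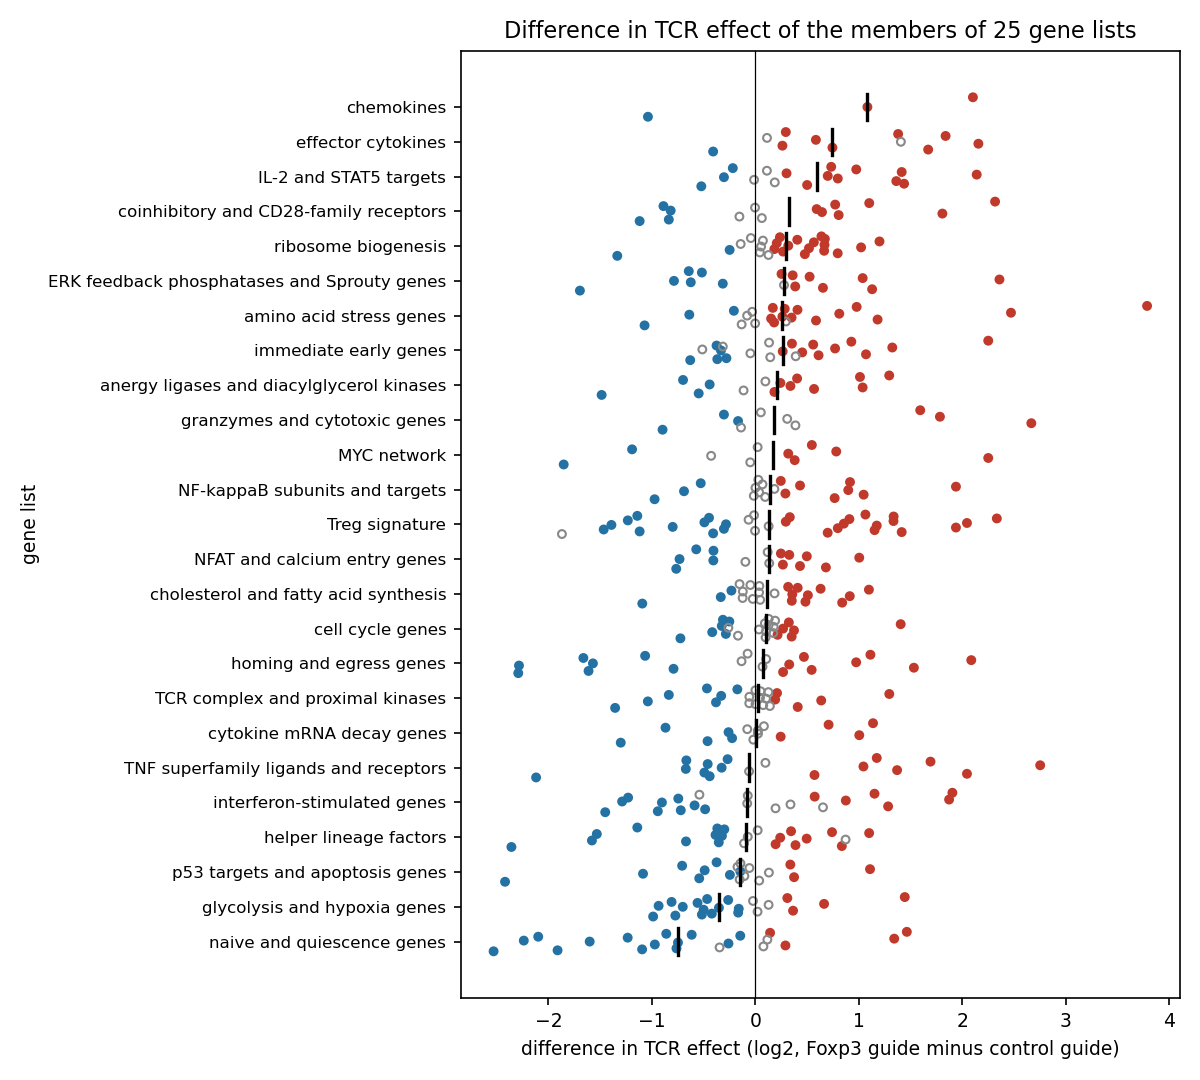
Difference in TCR effect (log2, Foxp3 guide minus control guide) of the members of 25 gene lists that had at least 10 counts in every group. Filled red and blue points are called higher and lower, open points are not called, and black bars are list medians, which run from -0.75 for naive and quiescence genes to 1.08 for chemokines, the latter over 3 genes.

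What the classes share beyond the response was read from gene models. Genes whose induction was blunted had a median length of 13.11 kb on GENCODE M21, and those whose induction was seen with the control guide alone 9.44 kb. Genes with a widened induction had a median of 25.42 kb, and those repressed with the control guide and induced with the Foxp3 guide 43.28 kb. Protein-coding genes made up 93.9% of widened inductions and 69.7% of inductions seen with the control guide alone. These values cover all called genes of each class. At 2-fold or more the medians were 14.8 kb for blunted and 15.17 kb for widened inductions, so that gap nearly closed, while they were 2.35 kb for inductions with the control guide alone and 45.13 kb for the repressed-to-induced reversals. At 2-fold or more, inductions with the control guide alone were 42.7% protein-coding, with a median log2 CPM of -0.73. Widened inductions were 87.5% protein-coding, with a median log2 CPM of 3.7. The part of level and gene type in the lengths was not tested. No median length over all genes tested is given, so the classes are set beside each other only. All are a description, without a test.

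Markers of other cell types were measured beside these results. Of 9 B cell markers 5 were tested, and 2 were called higher, Ebf1 (1.14 ± 0.20) and Ighm (0.23 ± 0.059); Ms4a1, Pax5 and Blk were among those too low to test. The summed level of the list was 946.5 to 947.5 CPM in the control-guide libraries at 0 h and 97.4 to 99.7 at 3 h, and 257 to 260.4 and 33.5 to 34.3 CPM with the Foxp3 guide, most of it Ighm. Of the 6 erythroid markers 3 were tested and Hba-a1 was called higher (0.47 ± 0.086); the sum was 7.84 to 10.6 CPM with the control guide and 75.1 to 82.9 with the Foxp3 guide over both times. Of 9 myeloid markers 4 were tested and 1, Itgam, was called (2.47 ± 0.24), with sums of 3.21 to 5.90 CPM over all libraries. Of 2 markers of CD8 T cells 1, Cd8b1, was called higher and of 2 tested markers of natural killer cells 1, Eomes, lower, and of 3 tested stromal markers 1, Col1a1, was higher, with sums up to 8.71, 9.43 and 1.09 CPM. The part of these transcripts in the differences above was not tested.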

How the data were processed

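Stranded RNA-seq of the 8 libraries was used. Per the submitters' processing notes, the tools were Trim Galore 0.6.3, STAR 2.7.9a and RSEM 1.3.1, with the genome builds mm10 and GRCm38; the annotation release is not given in the sources used here. The authors deposited expected counts per gene from RSEM, which were rounded to whole numbers, and TPM values per gene, also deposited by the authors, which served only as an alternative scale. No library column was left unused (0).

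Genes were filtered with filterByExpr, scaled by TMM and fitted over all 8 libraries with 1 mean per group by edgeR 4.0.16's robust quasi-likelihood test (R 4.3.3, limma 3.58.1), leaving 4 residual degrees of freedom, with a prior of 19.1 in the median. The coefficient of variation between replicates beyond counting error was 3.41%. Benjamini-Hochberg adjustment ran over all 16642 genes. The chi-square per gene between replicates was 4.55 to 7.47, so none was a copy. Of the identifiers tested, 16639 were found in GENCODE M21, which gave coordinates on GRCm38; promoter windows are from RefSeq, GRCm38.p6.

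Members and gene lists were chosen with earlier results of these data known, so no list is independent support. Named genes are Foxp3; the 12 largest differences in each direction among called genes whose log2 CPM averaged 3 or more and whose changes did not overlap; the 3 largest of each class and direction at 2-fold or more; and the largest called member of each list in each direction. Some genes that this rule names are not reported here. Other list members named beside them were picked after their values were seen. Some genes stand in more than 1 list. The procedure was tested on simulated data. These were independent counts drawn with the spread of these same libraries, so they cannot show whether the replicates are technical. Alternatives were DESeq2 1.42.0, limma-voom, median-ratio (RLE) or upper-quartile scaling, limma on log2(TPM+1) and log2(TPM+0.1), other count filters, thinning to the smallest library, a replicate block, a 1.2-fold test, a 2-fold minimum, and leaving out each library.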

Additional observations from a re-analysis of the deposited data

Results flagged for a closer look

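The TCR effect differed between the guides, by the test of the difference itself, in 7457 genes. In 425 of these genes the TCR effect was called with both guides and in opposite directions. Most of these effects were small. In the 247 that rose with the control guide, the medians were 0.34 with that guide and -0.39 with the Foxp3 guide. In the 178 that fell with it they were -0.39 and 0.36. The difference reached 2-fold in 158 of the 425. Upper-quartile scaling gave 404 reversed responses, and whether these were the same genes was not counted. Small effects can change sign with the scaling. Groups of 2 libraries allow no test for a library that stands apart.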

How the results depend on the processing

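Across 21 alternatives, 232 of the counts recomputed stayed within 1.5 times the reported ones and 41 did not. Upper-quartile scaling gave 476 TCR-repressed genes called higher, and moved the median TCR effect of all genes to -0.25 and -0.24 with the control and the Foxp3 guide. DESeq2 gave 2926 genes called lower. Requiring at least 1 CPM in all libraries left 651 genes at 2-fold or more. On log2(TPM+1), 2866 genes were lower, 701 reached 2-fold, and 260 TCR-induced and 1168 TCR-repressed genes were lower. Without a filter on that scale the calls were 4843, with 2380 lower, 730 at 2-fold, 2293 widened, 961 blunted and 255 reversed, and 723 TCR-induced genes higher and 210 lower, and 961 TCR-repressed genes lower. On log2(TPM+0.1), 2718 genes were lower, 1119 blunted and 277 TCR-induced genes lower. A test against 1.2-fold called 3963 genes, 1483 higher and 2480 lower, with 2326 widened, 702 blunted, 350 with the Foxp3 guide only and 222 with the control guide only; TCR-induced genes gave 740 higher and 288 lower, and 145 TCR-repressed genes were higher. Requiring 2-fold left 1557 genes, 555 higher and 1002 lower, in classes of 863, 177, 158, 226 and 130, with 312 higher and 134 lower among TCR-induced and 57 and 637 among TCR-repressed genes.

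The replicate numbers were not taken as pairs, and deviations of same-numbered libraries over all genes tested had correlations of -0.0757 to 0.00947. These deviations hold the counting noise of genes with few counts. They cannot show whether a number marks a shared animal or day. With the replicate number as a block 7240 genes were called. Of 94 named genes, 76 kept their call and direction in every setting run for them. Fosl1 lost its call in 12 of 19 settings, Cd8b1 in 9 of 20, Col1a1 in 6 of 18 and Sphk1 in 6 of 19. Sh3tc1 lost it in 3 of 20 settings and Mmp11 in 2 of 19. Of the 1557 calls at 2-fold or more, 99 changed sign on log2(TPM+1), with and without the filter, and 29 on log2(TPM+0.1). The named genes that changed sign were Kctd12b at 1.361 and Utf1 at -0.403 on log2(TPM+1), with and without the filter, and Foxp3, which was not called and ran from -0.077 to 0.038 over libraries left out. Of the fits that left out a library, Cd8b1 kept its call in those without control guide 0 h replicate 2 or Foxp3 guide 3 h replicate 1, and Col1a1 lost it without replicate 1 of the control guide at 0 h or 3 h. List medians changed sign under at least 1 setting for chemokines, TNF superfamily, interferon-stimulated, immediate early, cell cycle, helper lineage, mRNA decay, TCR complex, MYC network and cytotoxic genes. The cause of these shifts was not tested. Depth limits the genes silent at 0 h, whose fold is a bound or has a wide counting interval.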
